A study of Mus musculus with 3 samples.

Results

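The genes that encode the proteins of the cytosolic ribosome were examined as RNA targets of RBFOX2 in mouse hepatocytes. A gene was a member if GENCODE M21 lists it as protein coding on GRCm38 and its symbol is Rpl or Rps followed by a digit, or is Rpsa, Rplp0, Rplp1, Rplp2 or Fau, with the S6 kinases and pseudogenes left out. This rule found 87 of 22028 protein-coding genes: 32 of the small subunit, 46 of the large subunit, and 9 that are paralogs of a ribosomal protein gene or are only named after one. A cluster of crosslinks belonged to a member if its midpoint lay inside the gene on the gene's strand, which gave 396 of the 87021 clusters in the list.

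The crosslinks came from 3 libraries of primary hepatocytes, the metabolic cells that make up most of the liver, taken from C57BL6/J mice on a control diet, with no other genotype, treatment or comparison group in the labels. The hepatocytes were plated, left overnight, irradiated with ultraviolet light and lysed, and RNA bound to RBFOX2 was recovered with an antibody named RBM9 by eiCLIP, an assay in which the start of each cDNA marks the nucleotide that was crosslinked to the protein. The authors pooled the 3 libraries before they grouped the crosslinks into clusters, so that every value below is a count in 1 pooled list, with no spread between libraries or animals and no test over samples. The sources differ on how many animals stand behind each library, and the labels give no age, while the study's methods describe adult mice kept on their diet for months.

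Ribosomal proteins are made in large and balanced amounts in every cell, from genes with short introns. Many of those introns carry small nucleolar RNAs (snoRNAs), which are cut out of the spliced intron and guide chemical changes in other RNAs. Those of the H/ACA family guide pseudouridylation and those of the C/D family guide ribose methylation, mostly in ribosomal RNA. RBFOX2 is a splicing factor that recognises GCAUG, written here as GCATG, in introns beside regulated exons, where binding downstream of an exon is known to favour its inclusion and binding upstream its skipping.

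The sequences that carry the main results are those of Rps24, of 3 further clusters that hold GCATG, and of snoRNAs. They were read from annotated transcripts placed on GRCm38 and are written 5′ to 3′ on the strand of the gene. In the lines of this paragraph the capitals mark GCATG. The Rps24 stretch runs from an 18-nt exon (chr14:24494052-24494069, plus strand), which 1 of the 5 protein-coding transcripts that span it uses, through 44 nt of intron to the end of the highest cluster of any member, and the shorter Rps24 sequence is a cluster further downstream.
Rps24, chr14:24494052-24494165, plus: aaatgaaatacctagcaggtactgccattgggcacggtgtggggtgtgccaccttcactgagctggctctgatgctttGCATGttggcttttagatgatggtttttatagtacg
Rps24, chr14:24495682-24495699, plus: tctGCATGagttattttt
Rpl10, chrX:74271490-74271560, plus: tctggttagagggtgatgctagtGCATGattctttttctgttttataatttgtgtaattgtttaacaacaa
Rps13, chr7:116334087-116334109, minus: tcatgggtcGCATGcacgctccc
Rps12, chr10:23785845-23785856, minus: acttGCATGgta

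Gm24044 and Gm26448, H/ACA snoRNAs of Rpsa, are shown because the snoRNAs of that gene carried nearly all of its counts. Here the capitals mark the bases of the snoRNA that lay inside its highest cluster.
Gm24044, chr9:120128780-120128935, plus: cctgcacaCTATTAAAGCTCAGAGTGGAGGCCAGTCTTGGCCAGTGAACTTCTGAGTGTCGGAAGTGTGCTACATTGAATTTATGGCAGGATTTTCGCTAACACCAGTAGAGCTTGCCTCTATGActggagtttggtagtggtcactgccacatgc
Gm26448, chr9:120129351-120129553, plus: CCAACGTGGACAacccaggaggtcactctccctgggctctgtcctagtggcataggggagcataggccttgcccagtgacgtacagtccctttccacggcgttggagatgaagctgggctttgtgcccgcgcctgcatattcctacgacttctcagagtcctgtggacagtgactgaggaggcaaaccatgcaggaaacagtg

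RBFOX2 clusters were found on 79 of the 87 ribosomal protein genes (90.8%, Wilson 95% interval 82.9 to 95.3%), against 41.7% of all protein-coding genes. All 46 large-subunit genes and 30 of the 32 small-subunit genes held at least 1. The small-subunit genes without a cluster were Rps23, of the decoding centre, and Rps29. Of the 9 paralogs and namesakes, Rps27l (22 counts), Rpl22l1 (13 counts) and Rpl7l1 (13 counts) held 1 cluster each. Rpl3l, known from striated muscle, Rpl10l and Rpl39l, known from testis, and Rpl36al, Rps27rt and Rps19bp1 held none. Counts in the list begin at 10, so a gene without a cluster may still have been crosslinked below that number. The amount of each RNA in these cells was not measured in this list, so more RNA and more binding per RNA molecule cannot be told apart for any gene.

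The members' clusters summed to 12327 counts, or 0.432% of the 2850863 counts in the list, close to their 0.455% share of the clusters. Per cluster their counts ran from 10 to 640 with a median of 20, while the whole list had a median of 17 and a maximum of 186971. In the top 10% of the list, at 39 counts or more, stood 74 member clusters (18.7%). The check of the cell type was limited to genes that were crosslinked: 9 of 10 hepatocyte markers held clusters, led by Alb with 8110 counts, and Asgr1 held none. Of 10 markers of immune, endothelial, stellate and bile duct cells, 4 held 1 cluster each, with 12 to 24 counts. Rbfox2 itself held 61 clusters and 1609 counts.

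**Figure D1:**
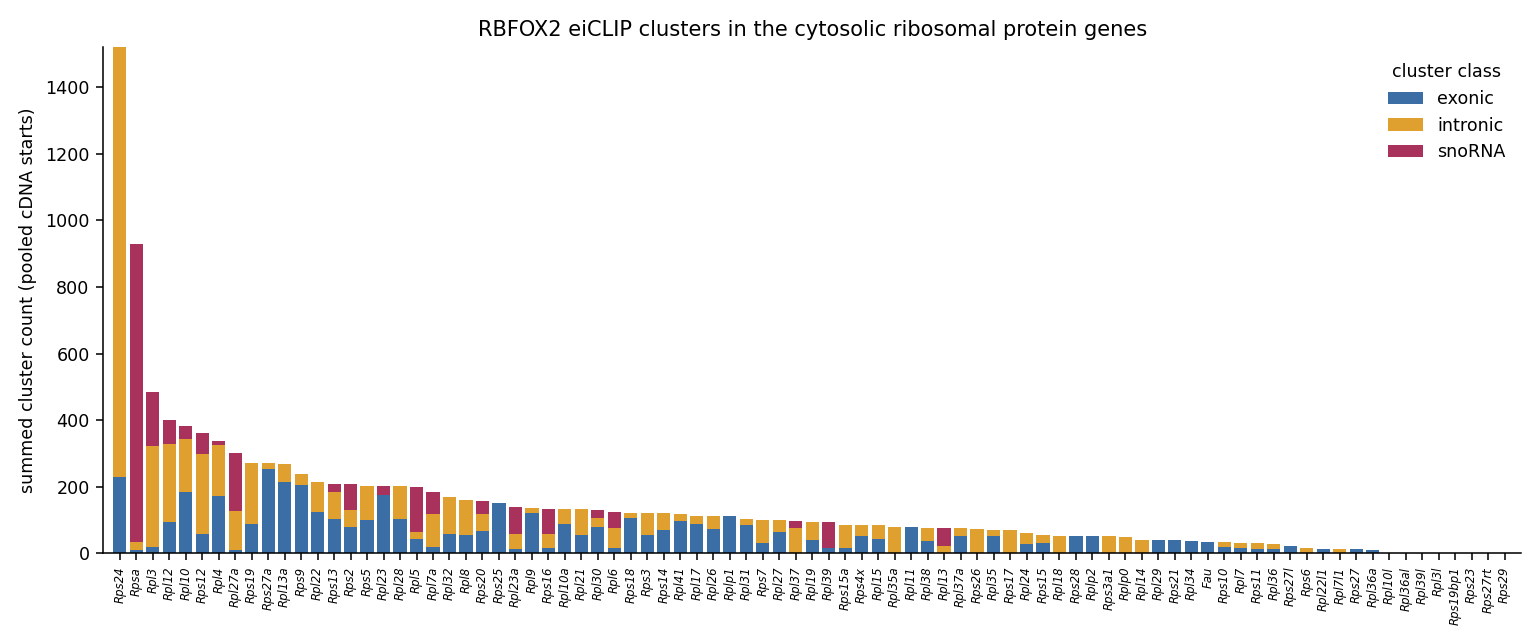
Summed cluster count of 85 of the 87 ribosomal protein genes, the others not reported here (vertical axis, pooled cDNA starts), stacked by exonic, intronic and snoRNA clusters. Rps24 (1520) and Rpsa (929) stand above all others, the first through introns and the second through snoRNAs, and 8 genes at the right have no cluster.

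Counts were spread unevenly over the genes. The 79 genes with a cluster had a median of 5 clusters and 111 counts, with quartiles at 53.5 and 184.5. Rps24, a small-subunit protein gene mutated in Diamond-Blackfan anaemia, had 24 clusters and 1520 counts and ranked 172 among the 9191 protein-coding genes with a cluster. Rpsa, which encodes the small-subunit protein also known as the laminin receptor precursor, followed with 7 clusters and 929 counts. The next were Rpl3, at the peptidyl transferase centre (484 counts), Rpl12, at the base of the stalk (401), Rpl10, which joins the large subunit late (381), and Rps12 (360). Rpl4, which lines the exit tunnel, summed to 336 counts, Rpl27a to 302, and Rps19, the gene most often mutated in Diamond-Blackfan anaemia, and Rps27a, a fusion with ubiquitin, to 270 each. At the other end of the genes with a cluster, Rpl36a held 10 counts, Rps27 held 13 and Rps6, the substrate of the S6 kinases, held 15.

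Because genes differ in length, levels were also compared per kb of gene. On that scale Rpsa led with 198 counts per kb, followed by Rps12 with 172, Rpl10 with 164 and Rps24 with 155. The median over the 79 genes was 30.5 counts per kb (quartiles 16.1 and 53.1), and the subunits lay close together at 33.0 for the small and 30.3 for the large. The 9112 other protein-coding genes with a cluster had a median of 2.14 counts per kb. They were also longer, with a median span of 33318 nt against 3368 nt for the 79 members with a cluster.

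Companion genes placed these levels. A list of 25 genes of translation factors and ribosome assembly, all with a cluster, had a median of 23.6 counts per kb and 237 summed counts. In that list Eef2, the elongation factor that moves the ribosome along, had 700 counts, and Eef1a1, which brings in aminoacyl-tRNA, had 682. The highest of the list was Eif4a2, a helicase of translation initiation, with 5256 counts. The proteins of the mitochondrial ribosome, which are encoded by a separate set of nuclear genes, had clusters on 45 of 78 genes (57.7%, Wilson 95% interval 46.6 to 68.0%) and a median of 2.35 counts per kb among those with a cluster, near that of the other genes. No test was made between these lists, because 1 pooled list has no replicates.

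The 396 clusters split almost evenly between exon and intron, and a smaller class lay in snoRNAs. Exons held 179 clusters (45.2%, Wilson 95% interval 40.4 to 50.1%) in 68 genes, introns outside snoRNAs held 183 (46.2%, 41.4 to 51.1%) in 63 genes, and snoRNAs held 34 (8.59%, 6.21 to 11.8%) in 22 genes. In the other protein-coding genes exons held 30.2% of the clusters, introns 69.6% and snoRNAs 0.158%. By count, the members' exons held 4725 (38.3%), introns 5256 (42.6%) and snoRNAs 2346 (19.0%), with a median of 20 counts per exonic, 19 per intronic and 36.5 per snoRNA cluster. These intervals cover counting error only, and clusters of 1 gene are not independent. Exons of transcripts annotated as retaining an intron were treated as intron here, and counting them as exon raised the exonic share to 67.4%.

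Relative to length, both parts of the members were denser in clusters than those of other genes. Over the 79 members with a cluster, the exons held 1.55 clusters per kb and the introns 0.762 per kb, while over the 9112 other protein-coding genes with a cluster the exons held 0.506 and the introns 0.0730 per kb. With the genes without a cluster included, these densities were 1.46 and 0.716 per kb in members and 0.271 and 0.0511 per kb in other genes. Within the exonic class, coding sequence held 101 clusters (25.5% of all member clusters), the 5′ UTR 31 (7.83%), the 3′ UTR 23 (5.81%) and exons of non-coding transcripts 24 (6.06%). In other genes coding sequence held 14.4%, the 3′ UTR 13.6% and the 5′ UTR 1.47%, so the 5′ UTR and 3′ UTR stood in the opposite order there. Unlike the densities, these shares are not adjusted for length, and UTR lengths were not compared.

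The highest exonic cluster lay in Rps27a, in an exon of a non-coding transcript (chr11:29547217-29547398, minus strand, 180 counts), and made up most of that gene's 270. In Rpl10 a cluster of the same kind (155 counts) held the GCATG shown above. Rps25, of the small subunit, had the highest cluster in coding sequence, with 101 counts (chr9:44407990-44408102, plus strand). It was followed by Rpl13a with 99 counts and Rpl41, the smallest ribosomal protein, with 98 counts.

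Messenger RNAs of ribosomal proteins begin with a run of pyrimidines that controls their translation, so clusters in 5′ UTRs were placed relative to the annotated transcript starts. Of the 31 clusters in members' 5′ UTRs, 13 (41.9%, Wilson 95% interval 26.4 to 59.2%) began within 10 nt of a start, against 175 of 1073 (16.3%, 14.2 to 18.6%) in other genes. Rpl31 held the highest of them, with 69 counts and a 5′ end 5 nt before an annotated start. Rps9 followed with 53 counts, 4 nt before one, and Rpl34 and Rps2 with 36 counts each, 1 nt after a start and at a start. Clusters far from a start were found too, with 5′ ends 253 nt after one in Rpl28 (11 counts), 198 nt in Rpl8 (20 counts) and 156 nt in Rpl30 (14 counts). The length of the 5′ UTRs was not compared between members and other genes.

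Rps24 held the highest cluster of all members, and 90.1% of its counts lay in 1 region near its 3′ end. This gene is known to be spliced in several ways just before its stop codon. The region reached from the end of the last long coding exon to the start of the last exon (chr14:24493494-24495774, plus strand, 2281 nt) and held 20 of the 24 clusters and 1370 of the 1520 counts. The cluster of 640 counts (chr14:24494114-24494165) alone held 42.1% of the gene's counts and stood above 99.8% of all clusters in the list. The other 19 had between 10 and 97 counts.

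The cluster of 640 counts began 45 nt downstream of the last base of the 18-nt exon. GCATG began 16 nt after the 5′ end of the cluster and lay inside it. The exon carries 3 coding nt in the transcript that uses it and is skipped by 4 others. A second short exon, of 20 nt (chr14:24495430-24495449), follows in the same region, is annotated with 0 coding bases (the stop codon not counted) and is used by 3 transcripts and skipped by 1. It was flanked on both sides: upstream by a cluster of 78 counts that ended 59 nt before it, with GCATG 1 nt away from the cluster, and downstream by a cluster of 97 counts that began 233 nt after it and held GCATG.

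All 3 copies of GCATG found in the known sequence of that region lay inside a cluster or 1 nt from it, and these were the highest cluster of the region, the second highest and the fifth highest. The clusters between them in rank had 85 and 84 counts and lay in the stretch between the short exons. Elsewhere in the gene 7 further copies were known, from 0 to 354 nt from a cluster. The copy that stood beside the highest of these clusters lay 14 nt before a coding-exon cluster of 74 counts.

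**Figure D2:**
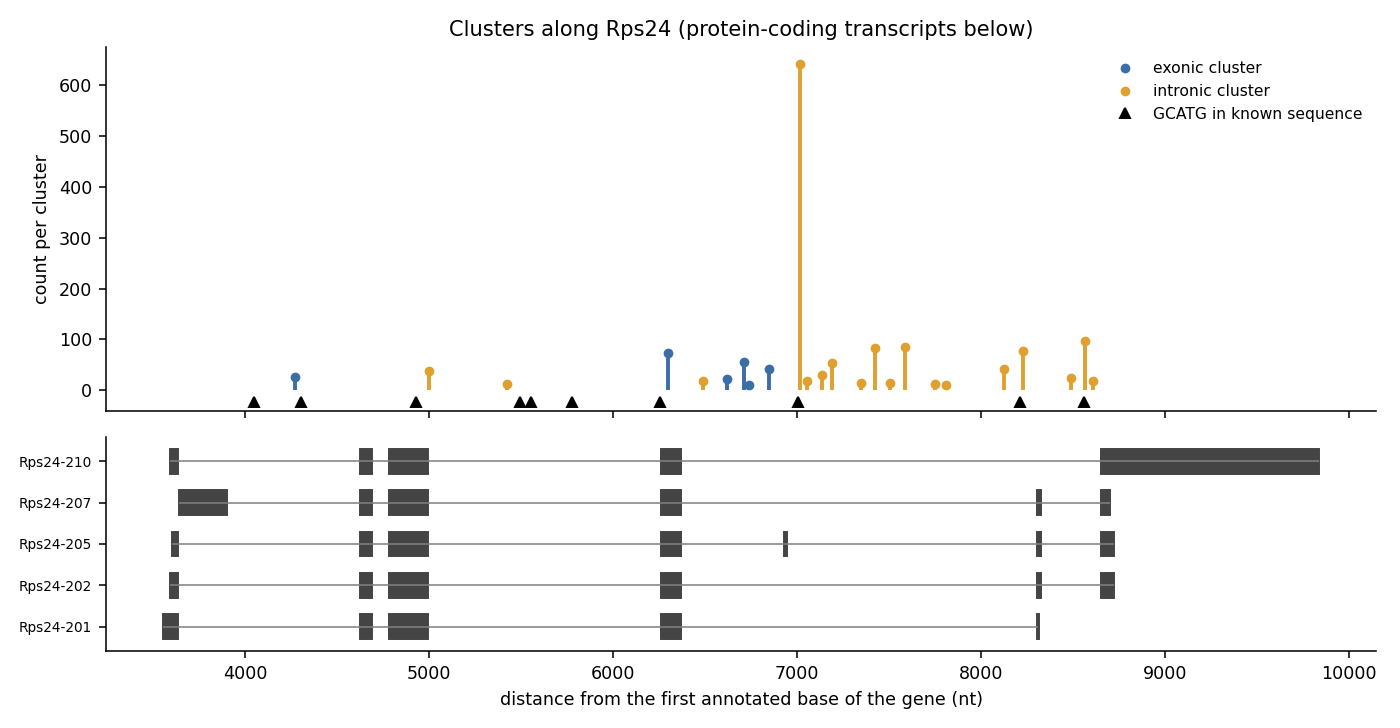
Clusters along Rps24 by distance from the first annotated base of the gene (horizontal axis, nt) and count (vertical axis), with GCATG in known sequence as triangles and the exons of 5 protein-coding transcripts below. The cluster of 640 counts stands just downstream of the 18-nt exon drawn in 1 transcript, and the other clusters of the gene are all under 100 counts.

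Annotated cassette exons, which some transcripts of a gene use and others skip, were then listed in all members. There were 52 in 25 genes, exons that differ only in their ends counted separately, and 16 of them (30.8%, Wilson 95% interval 19.9 to 44.3%) in 10 genes had an intronic cluster within 300 nt. Among the members' exons that none of at least 2 spanning transcripts skips, 97 of 242 (40.1%, 34.1 to 46.4%) did, so a nearby cluster was no more frequent at cassette exons. In other protein-coding genes, whose introns are longer, 7.88% of cassette exons and 5.34% of the exons never skipped had one. Apart from Rps24, these genes were Rpl10, Rpl10a, Rpl18, Rpl3, Rpl37a, Rpl7l1, Rps12, Rps14 and Rps19. In Rps12, a cluster of 44 counts began 19 nt downstream of a 15-nt exon that 1 transcript uses and 3 skip, and no GCATG lay in its window. In Rpl10, a cluster of 41 counts overlapped the end of a cassette exon. The others beside Rpl10a, Rpl18, Rpl3, Rpl37a, Rpl7l1, Rps14 and Rps19 exons had 10 to 23 counts. Whether these exons are used in hepatocytes was not measured here.

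Introns of these genes are short, which by itself places many bases close to an exon. The median intron around the 183 intronic clusters was 530 nt long. Of the clusters, 93 (50.8%) lay within 100 nt of an exon and 150 (82.0%) within 300 nt. By midpoint the shares were 49.7% and 81.4%, where 25.7% and 51.8% of all intronic bases of the members lie that near. In other protein-coding genes 10.5% and 21.1% of the midpoints and 4.02% and 10.6% of the intronic bases did. The upstream exon was the nearer one for 117 and the downstream exon for 66, and 21 overlapped the upstream exon and 4 the downstream one. The second highest intronic cluster, in Rpl12 (chr2:32962094-32962228, plus strand, 189 counts), was of this kind and ran from a coding exon across its 5′ splice site into the intron. The cluster of Rps13 with 83 counts (chr7:116334007-116334125, minus strand) also overlapped the upstream exon. In Rpl3, 13 intronic clusters summed to 304 counts and none exceeded 79, and in Rps12 9 clusters summed to 241 counts, none above 45.

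GCATG was searched in each cluster with 50 nt added on both sides, on the gene's strand, outside snoRNAs, wherever annotated transcripts gave the whole window. Sequence was known for 201 windows of 61 genes, and 34 of them, in 20 genes, held GCATG (16.9%, Wilson 95% interval 12.4 to 22.7%). In the other protein-coding genes the share was 20.3%. The 199 windows with controls held it in 17.1% (12.5 to 22.9%), while 9.80% of 1990 windows of the same length drawn from the same genes and class held it, a difference of 7.29 percentage points. For the other genes the shares were 20.3% and 11.1%, a difference of 9.21 points.

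The intronic windows held the motif more often than the exonic ones, in members as in other genes. In members 21.8% of 87 intronic windows (14.5 to 31.6%) and 12.2% of their controls held GCATG, and 13.4% of 112 exonic windows (8.29 to 20.9%) and 7.95% of theirs. Windows are named by their midpoint, and an intronic window or control can reach into an exon. Its GCATG can therefore be exonic, as for Rps13 and the Rps24 cluster of 38 counts, and such windows were not counted apart. Since only 22.1% of the members' intronic bases had known sequence, most of them in retained introns, the intronic value stands for part of the introns. Without Rps24 the share over both classes was 14.9% against 8.86% in controls. Among the members' clusters in the top 10% of the list, 11 of 35 windows (31.4%, 18.6 to 48.0%) held GCATG against 14.0% of controls, and in other genes 32.9% against 11.7%. The intervals of members and other genes overlap in each of these classes. CATGC, the reverse complement of the motif, gave a difference of 0.302 points in members.

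**Figure D3:**
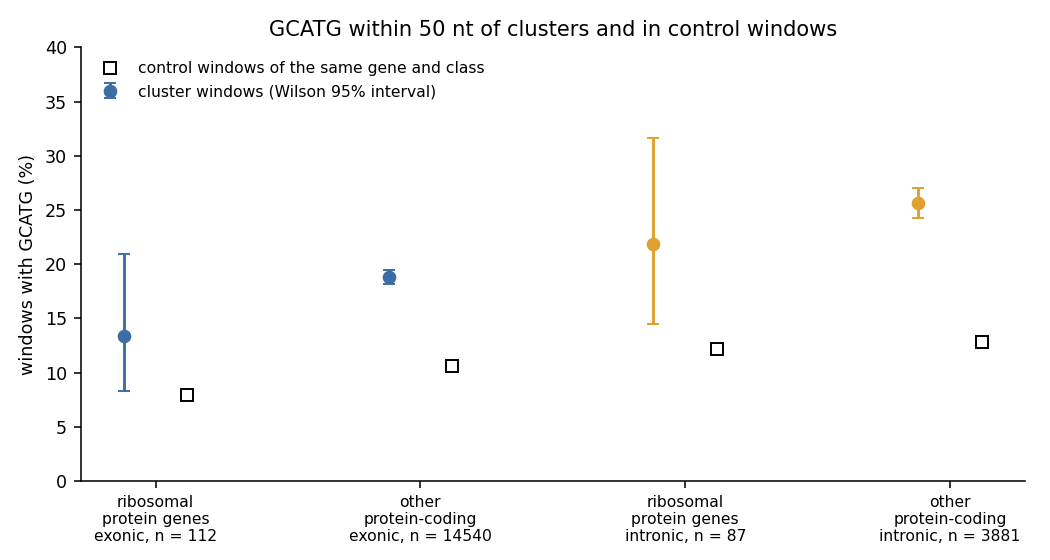
Percentage of windows (cluster with 50 nt on each side) that hold GCATG, for exonic and intronic clusters of ribosomal protein genes and of other protein-coding genes, with Wilson 95% intervals, beside control windows of the same genes and class (open squares). Each cluster share lies above its control, and the interval of the members' exonic windows (8.29 to 20.9%) nearly reaches its control at 7.95%.

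Clusters with the motif had the higher median count, a difference that was not tested. The 34 clusters had a median of 29 counts and the 167 without it a median of 19. Wider clusters were searched over longer windows, and the groups were not matched for width. Of the 34, 26 lay outside Rps24, and neighbouring windows in Rps24 can share a copy of the motif. In 8 of the 34 the motif lay inside the cluster, and in 7 it began within 10 nt of the cluster's 5′ end. The highest were the Rps24 cluster of 640 counts, the Rpl10 cluster of 155 counts with GCATG 23 nt from its 5′ end, and the Rps24 cluster of 97 counts with GCATG 3 nt from its 5′ end. Rps13 (83 counts, 25 nt), Rpl27a (66 counts, GCATG starting 29 nt before the cluster) and Rps12 (45 counts, 4 nt) followed, with a pair of other Rps24 clusters at 78 and 74 counts among them.

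Seen from the motif, most copies of GCATG in these genes had no cluster beside them. Of the 122 copies in exons, 27 (22.1%, Wilson 95% interval 15.7 to 30.3%) lay within 50 nt of a cluster, where 17.9% of all exonic bases did. Of the 51 copies in known intron sequence, 15 (29.4%, 18.7 to 43.0%) lay that near, where 18.6% of the known intronic bases did. Without Rps24 the intronic values were 11 of 44 copies (25%) and 16.8% of the bases. The exonic interval includes the share of all exonic bases. The intronic interval begins just above its own share, and includes it without Rps24 (14.6 to 39.4%).

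The snoRNAs inside ribosomal protein genes held clusters more often than those inside other genes. Of 58 annotated snoRNAs in 30 members, 33 (56.9%, Wilson 95% interval 44.1 to 68.8%) in 22 host genes held a cluster, against 30.0% of 320 snoRNAs in other protein-coding genes. These 33 held 34 clusters and 2346 counts, with a median of 38 counts per snoRNA and a maximum of 447. Host genes were included whether or not they held any cluster, and the shares were not computed for hosts with a cluster alone. Of all other protein-coding genes 41.5% held a cluster, against 90.8% of members. Inside a snoRNA, the free snoRNA and the intron of the host pre-mRNA give the same reads. Crosslinks there to the mature snoRNA and to the pre-mRNA cannot be told apart. For 7 of the 33 the highest cluster began before the first base, outside the annotated snoRNA.

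The H/ACA family stood out among them. In members 17 of 20 H/ACA snoRNAs held a cluster (85.0%, Wilson 95% interval 64.0 to 94.8%) and summed to 1756 counts, while 11 of 30 C/D snoRNAs did (36.7%, 21.9 to 54.5%) and summed to 409. Clusters that only overlapped a snoRNA, with the midpoint outside it, were not counted. Of 8 snoRNAs that could not be assigned to a family by name or sequence, 5 held a cluster, with 181 counts in all. In other protein-coding genes the shares of the families were nearly equal, with a cluster on 47 of 127 H/ACA (37.0%, 29.1 to 45.7%) and 22 of 58 C/D snoRNAs (37.9%, 26.6 to 50.8%). C/D snoRNAs are shorter, with a median of 79 nt against 132 nt in members, and reads under 18 nt were discarded. Whether length had a part in the difference was not tested. Gm23130 of Rps12 was placed in H/ACA by its 3′ end although it is 74 nt long. The 8 unassigned snoRNAs of members also have a median of 74 nt. In other genes the unassigned snoRNAs have a median of 134 nt, equal to that of the H/ACA snoRNAs there. The family shares therefore depend on these assignments in both sets of genes.

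**Figure D4:**
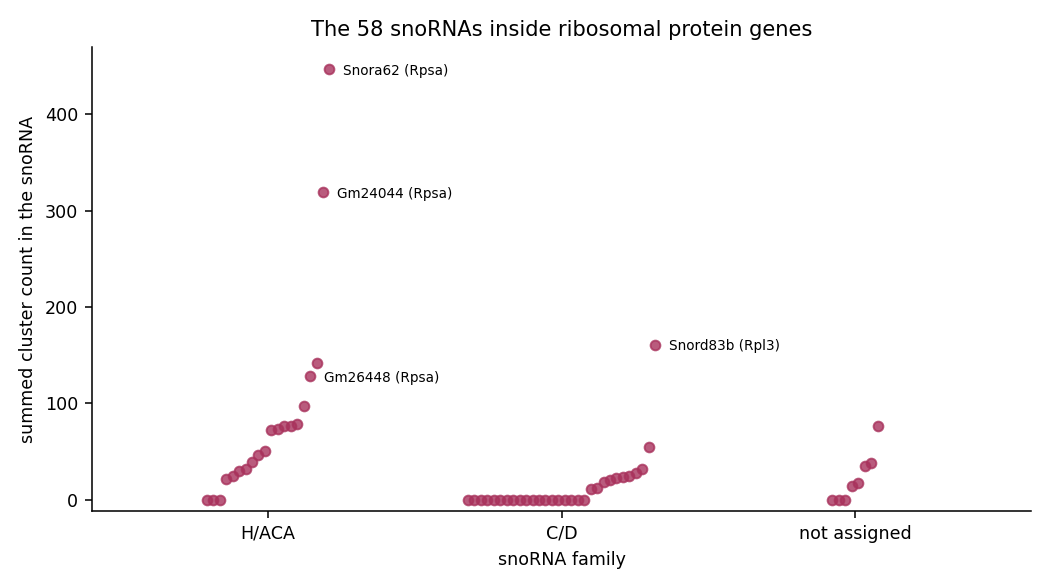
Summed cluster count of each of the 58 snoRNAs inside ribosomal protein genes, by family. Of the 20 H/ACA snoRNAs 3 lie at 0, of the 30 C/D snoRNAs 19 do, and the 4 named snoRNAs have 128 to 447 counts.

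Rpsa owed its rank to its snoRNAs. Snora62 held 447 counts in 1 cluster, Gm24044 held 319 in 1 cluster, and Gm26448 held 128 in a pair of clusters with 114 in the higher one, so that 894 of the gene's 929 counts lay in H/ACA snoRNAs. The rest of the gene held 25 counts in 2 intronic clusters and 10 counts in its 3′ UTR. No copy of GCATG occurs in these 3 snoRNAs. The cluster on Snora62 began 4 nt after the first base of the snoRNA and that on Gm24044 8 nt after it, where its capitals begin in the sequence above, and both covered most of the RNA. On Gm26448 the higher cluster began 1 nt before the snoRNA and ended within its first bases.

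**Figure D5:**
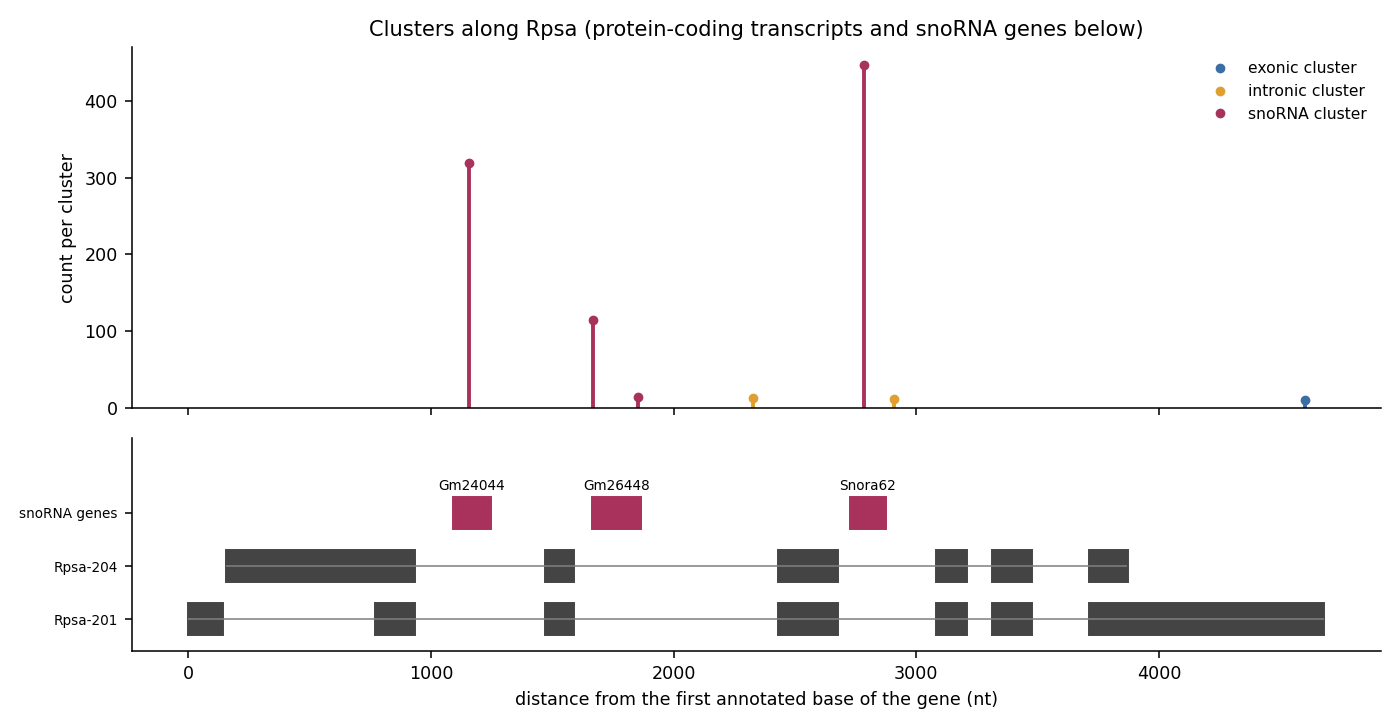
Clusters along Rpsa by distance from the first annotated base of the gene (horizontal axis, nt) and count (vertical axis), with snoRNA genes and the exons of 2 protein-coding transcripts below. The clusters of 319, 114 and 447 counts lie on Gm24044, Gm26448 and Snora62, and the clusters outside snoRNAs are near the list's minimum of 10.

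In other hosts the snoRNAs held from a small part to most of the gene's counts. Rpl3 held the highest C/D snoRNA cluster, of 161 counts, assigned to Snord83b, although it began 33 nt before the snoRNA, and 304 of its 484 counts lay elsewhere in introns. In Rpl27a, Gm24888 held 97 counts and Snora3 held 79, together 176 of 302. In Rpl39, a short protein of the exit tunnel, Snora69 held 77 of 94 counts. Rpl5, which binds 5S ribosomal RNA, hosted Gm22270 with 73 counts, Gm26387 with 51 and Snord21 with 12.

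Rps16 hosted AF357399 with 77 counts, Rps2 hosted Snora64 with 77, Rpl12 hosted Snora65 with 72, Rpl13 hosted Snord68 with 55 and Rpl6 hosted Gm26205 with 46. Rpl10 (Snora70, 39 counts), Rps20 (Gm24016, 38), Rps12 (Gm23130, 32, and Snora33, 30), Rpl23 (Snora21, 25), Rps13 (Snord14a, 24) and Rpl30 (Gm24523, 22) held less. Rpl23a carried 3 C/D snoRNAs with clusters, Snord42b with 32 counts, Snord42a with 28 and Snord4a with 23. Rpl7a carried 3 snoRNAs of no assigned family, with 35, 17 and 14 counts. Rpl37 (Snord72) held 20 counts and Rpl4 (Gm22455) held 11.

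All 4 C/D snoRNAs of Rpl13a, Snord32a, Snord33, Snord34 and Snord35a, were without a cluster, although Rpl13a itself held 268 counts. The C/D snoRNAs without a cluster by midpoint also included both in Rps3, Snord15a and Snord15b, and all 3 in Rpl17. Snord15a was nevertheless overlapped by a cluster of 41 counts with its midpoint outside. Snord16a in Rpl4 was overlapped in the same way by a cluster of 32 counts. With any overlap counted, the members' snoRNAs held 36 clusters in place of 34. The H/ACA snoRNAs without one were Gm23202 in Rpl21, Snora52 in Rplp2 and Snora7a in Rpl32.

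The clusters were placed along the snoRNAs. Relative to the snoRNA's first base, the 5′ end of the highest cluster had a median position of 23 nt, lay 0 to 30 nt after it in 18 of 33 snoRNAs and before it in 7. On the 96 clustered snoRNAs of other genes the values were similar, with a median of 20.5 nt and 43 at 0 to 30 nt. GCATG occurred in 9 of the 58 snoRNAs, of which 7 had a cluster, and in 39 of the 320 snoRNAs of other genes, of which 13 had one. Snora64 of Rps2 is shown because its cluster of 77 counts, which began 50 nt before the snoRNA, covered the motif, marked in capitals.
Snora64, chr17:24720772-24720905, plus: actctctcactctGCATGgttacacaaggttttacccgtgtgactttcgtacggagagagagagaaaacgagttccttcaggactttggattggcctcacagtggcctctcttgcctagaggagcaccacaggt

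Ribosomal protein genes have many near-identical pseudogene copies, and only reads with a unique place in the genome were kept. Of the 30-nt stretches in a member's messenger RNA, a median of 54.7% also occurred in a transcript of another annotated gene, with a range from 0 to 99.1%, and 51 of 87 members shared at least 50%. Exonic counts of such genes are therefore uncertain and may be too low. Members with an exonic cluster (68) shared a median of 62.4% and those without (19) a median of 46.9%, so the median was lower in the genes without exonic clusters. The 19 include paralogs and namesakes, which shared from 0% (Rpl3l and Rps19bp1) to 93.3% (Rps27rt). The genes of the subunits were not compared alone. Introns and snoRNAs were outside this comparison.

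A further 17 member clusters also lay inside another annotated gene on the same strand: 8 of Rpl13a, 4 of Rpl24, 3 of Rpl13 and 2 of Rps10. These clusters were counted for the ribosomal protein gene and cannot be told apart from the other. Of the 291 member clusters with sequence downstream of their 5′ end, 2 held a heptamer resembling the start of the library adaptor, the higher of them with 38 counts in Rps24.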

How the data were processed

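RBFOX2 eiCLIP was performed on 3 libraries of primary mouse hepatocytes. According to the study's methods, reads were trimmed, those under 18 nt were discarded, the rest were aligned to GRCm38 with STAR, and uniquely mapped reads without PCR duplicates were kept. The authors pooled the libraries, removed ribosomal RNA and called clusters with Paraclu. The submitters' processing notes name CASAVA 1.8.4, cutadapt and STAR 2.4.2a. The value deposited per cluster is a whole-number count, read here from its values (minimum 10) as pooled cDNA starts. It was not normalised to RNA level or depth. The depth of each library is not given in the sources used here, and input libraries were not analysed here.

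Clusters were placed by midpoint with GENCODE M21 to snoRNAs before any other class, to coding exons before UTRs (3′ before 5′), then to non-coding exons and last to introns, and coordinates are 1-based. A snoRNA was assigned to a family by its name, otherwise to H/ACA with ACA 3 nt from the 3′ end, or to C/D with TGATGA in the first 15 nt and CTGA in the last 15. Sequence came from 141767 annotated transcripts placed through their exons, with 0 conflicting bases, and each cluster had up to 10 control windows from its own gene and class. Shares have Wilson 95% intervals, which cover counting error only. No test over samples was possible with 1 pooled list, so all comparisons are descriptions. The counting steps were tested on simulated data. Python 3.11.15, numpy 2.4.6, pandas 2.3.3, scipy 1.17.1 and matplotlib 3.10.9 were used.

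The members and the gene lists were chosen with earlier results of these data known. Genes named were the 10 with the highest summed count, holders of the 10 highest clusters and of the 10 highest clusters with GCATG, hosts of a clustered snoRNA, and genes with a cluster within 300 nt of a cassette exon. Genes without a cluster and the companion genes, 5′ UTR examples and coding-sequence examples were named after their values were seen. Alternatives changed the count filter, the placement rule, the snoRNA ends, the motif, the window and the controls. Leaving out Rps24 was added after seeing the data. A few genes and sequences that meet these rules are counted in the totals but not reported here.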

Additional observations from a re-analysis of the deposited data

Results flagged for a closer look

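On the strand opposite to a ribosomal protein gene lay 5 clusters with 124 counts in all, which were not counted for any member above. Where such a cluster lay in another protein-coding gene, it was counted for that gene. Of these, 4 lay in a gene annotated on that strand, namely Fam69a opposite Rpl5 (14 counts), Ndst1 opposite Rps14 (34 counts), Snhg9 with Snora78 opposite Rps2 (38 counts) and Ccdc84 opposite Rps25 (17 counts). The other, of 21 counts opposite Rps14, lay in no annotated gene on its strand. Among 302 annotated pseudogenes of ribosomal protein genes named with -ps, 2 held a cluster, Rpl10a-ps1 with 13 counts and Rps4x-ps with 10 counts, 23 counts in all. Reads that also match the parent gene or another copy had been removed by the authors before clusters were called. No control library was analysed here, so both values are set only against the minimum of 10 counts per cluster.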

How the results depend on the processing

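Leaving out a library was not possible because the authors pooled them, and a value here cannot show how far libraries differ. No paired analysis was possible because the 3 libraries form 1 group and were deposited as 1 pooled list. Keeping only the top 10% of counts left 39 genes with a cluster, 16 snoRNA clusters and 6164 counts, an exonic share of 39.2%, a snoRNA share of 31.2% of the counts and a GCATG difference of 17.4 percentage points. The snoRNA share of the counts, 19.0% as reported, was 21.9% at counts of at least the list's median, 14.9% when clusters were placed by their 5′ end, 19.99% with snoRNAs extended by 10 nt and 21.7% without Rps24. The exonic share of clusters rose to 51.3% when any overlap with an exon counted and to 67.4% with retained-intron exons as exons. The GCATG difference, 7.29 points, was 17.6 with 100 nt on each side and 0.302 for CATGC in its place. Other settings moved these values by less, and no setting turned the GCATG difference negative. With TGCATG it was 4.67 points, with 20 nt on each side 2.96, and without Rps24 6. Depth limits the list at its minimum of 10 counts.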
